A study of Mus musculus with 18 samples.

Results

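The genes described here encode the fibroblast growth factors (FGF), bone morphogenetic proteins and growth differentiation factors (BMP, GDF), transforming growth factors beta (TGF-beta) with the activin subunits, and epidermal growth factor (EGF) family ligands, together with their receptors and the BMP antagonists Nog and Grem1. They were picked by gene symbol, a rule that uses no measured value but was set with earlier results of these data known, and the symbols matched 75 of the 23337 genes in the count table. Of these, 27 belong to the FGF family, 25 to the BMP and GDF group, 8 to the TGF-beta and activin group and 11 to the EGF and neuregulin group. The other 4 share only a name pattern or a historical name: Bmp1 encodes a procollagen protease, Bmp2k a kinase, and Fgfr1op and Fgfr1op2 encode cytoplasmic proteins first found as fusion partners of an FGF receptor.

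RNA was sequenced from the exorbital lacrimal glands (LGs) of male mice. NOR/LtJ mice, a strain whose males develop autoimmune inflammation of the LG and which serves as a model of Sjogren's disease, were compared with healthy BALB/c mice at 3, 8 and 16 weeks of age, with 3 libraries in each of the 6 groups. No mouse carried a transgene or received a treatment. The 3-week libraries each came from a single mouse, whereas those of 8 and 16 weeks each pooled several mice of 1 strain and age, so age and pooling changed together. Sample titles name the diseased strain NOD and the genotype label names it NOR/LtJ; it is called NOR here. Between 6378613 and 20493076 reads per library were assigned to genes, with a median of 15202570. All 5 lacrimal acinar markers (Aqp5, Slc12a2, Chrm3, Bhlha15 and Rab3d) were detected in every group. Their summed level was 1786 to 1958 CPM (read counts scaled to library size) in the BALB/c libraries of 8 weeks and 1138 to 1274 CPM in those of NOR, and at 16 weeks 1516 to 1705 against 774 to 1217 CPM; no single acinar marker was called by edgeR or DESeq2 at 3, 8 or 16 weeks, and 2, 3 and 3 had an unadjusted p under 0.05. The 5 B cell markers summed to at most 5.48 CPM in every BALB/c library, but to 7.25 to 23.9 CPM in NOR at 8 weeks and 136 to 449 CPM at 16 weeks, and all 5 T cell markers were likewise called higher in NOR at both ages. In these bulk libraries fewer cells of a type cannot be told apart from less RNA per cell, and the part that cell composition had in the differences below was not tested. Markers of the neighbouring parotid gland summed to over 10000 CPM in 4 libraries. These were BALB/c 3 weeks replicate 2, NOR 3 weeks replicates 2 and 3, and NOR 8 weeks replicate 2. In the others the sums ran from 1.26 CPM to 6170 CPM in BALB/c 16 weeks replicate 2, with 3930 CPM in NOR 16 weeks replicate 2.

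FGFs and EGF family ligands act through receptor tyrosine kinases and the ERK cascade. BMPs, GDFs and TGF-betas bind complexes of type I and type II serine/threonine kinase receptors, which phosphorylate SMAD proteins. In the developing LG, FGF10 from the mesenchyme acts on FGFR2 in the epithelium to drive budding and branching, and BMPs modulate that growth. In adult exocrine glands EGF is a secreted product, neuregulin signals to ERBB3 and ERBB4, and TGF-beta1 acts on immune cells and on the matrix.

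Of the 75 genes, 8 had no read in any library (Fgf3, Fgf4, Fgf5, Fgf6, Fgf8, Fgf15, Bmp10 and Gdf1). The annotated exons of Gdf1 lie entirely within those of Lass1 and Upf1, and reads that overlap several genes were not counted, so its zero holds no information. A further 30 had too few reads for a test, leaving 37, of which 33 encode a ligand, an antagonist or a receptor. Tested were 3 of 15 secreted paracrine FGF ligands, 6 of 20 BMP and GDF ligands, 4 of 5 TGF-beta and activin ligand genes, 5 of 7 EGF family ligands and 14 of 15 receptors. None of the 3 endocrine FGFs or the 4 intracellular FGF homologous factors reached the minimum. A gene is said to be called below when the edgeR adjusted p was at most 0.05 and the absolute log2 fold change at least 1, across all 13376 genes tested.

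Per unit of transcript length, the most abundant ligand gene was Egf, at a mean RPKM (CPM per kilobase of exon) of 19.2 over all libraries and the highest in each of the 6 groups. The ligand gene next to it differed by group: it was Gdf5 in BALB/c at 3 and 8 weeks (means of 12.1 and 8.94 RPKM), Nrg1 in BALB/c at 16 weeks (7.43 RPKM, beside 6.78 for Fgf1 and 6.25 for Gdf5), and Fgf1 in NOR at 3, 8 and 16 weeks (3.81, 3.93 and 5.66 RPKM, beside 3.41, 0.579 and 0.184 for Gdf5). The most abundant receptor genes were Bmpr1a at 15.3 and Erbb3 at 13.6 RPKM, then Erbb2 and Tgfbr2, both at 7.42 RPKM. At the low end of the tested ligand and receptor genes were Fgfr3 and Tgfa, at 0.220 and 0.217 RPKM.

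NOR and BALB/c LGs differed in 4 of the 37 genes at 3 weeks, in 8 at 8 weeks and in 9 at 16 weeks. Among all genes tested, 5.26%, 11.6% and 19.4% were called at these ages. By direction, 2 of the 37 were higher and 2 lower in NOR at 3 weeks, where 3.54% of all genes were higher and 1.71% lower. At 8 weeks 3 were higher and 5 lower, beside 8.93% and 2.65% of all genes. At 16 weeks 2 were higher and 7 lower, beside 14.1% and 5.22%. In all, 11 of the 37 were called at 1 or more ages, 26 at none, and 4 (Gdf5, Bmpr1b, Bmp6 and Bmp2k) at all 3. For every one of these calls the 3 NOR libraries lay wholly above or wholly below the 3 BALB/c libraries, which was true of 31.3%, 45.1% and 57.3% of all genes at 3, 8 and 16 weeks. The median log2 fold change of the 37 was 0.03, -0.03 and 0.02 at the 3 ages, and that of all genes 0.01, 0.02 and -0.01, both near 0. By the adjusted p alone, with no fold cutoff, 5 of the 37 were higher and 5 lower in NOR at 3 weeks, beside 7.95% and 7.01% of all genes. The same counts were 5 and 9 at 8 weeks, beside 16.4% and 11.4%, and 6 and 12 at 16 weeks, beside 25.5% and 25.4%. Across the 3 strain comparisons none of the 7 tested FGF genes was called, while 4 of 10 BMP and GDF genes were called at 8 weeks.

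**Figure D1:**
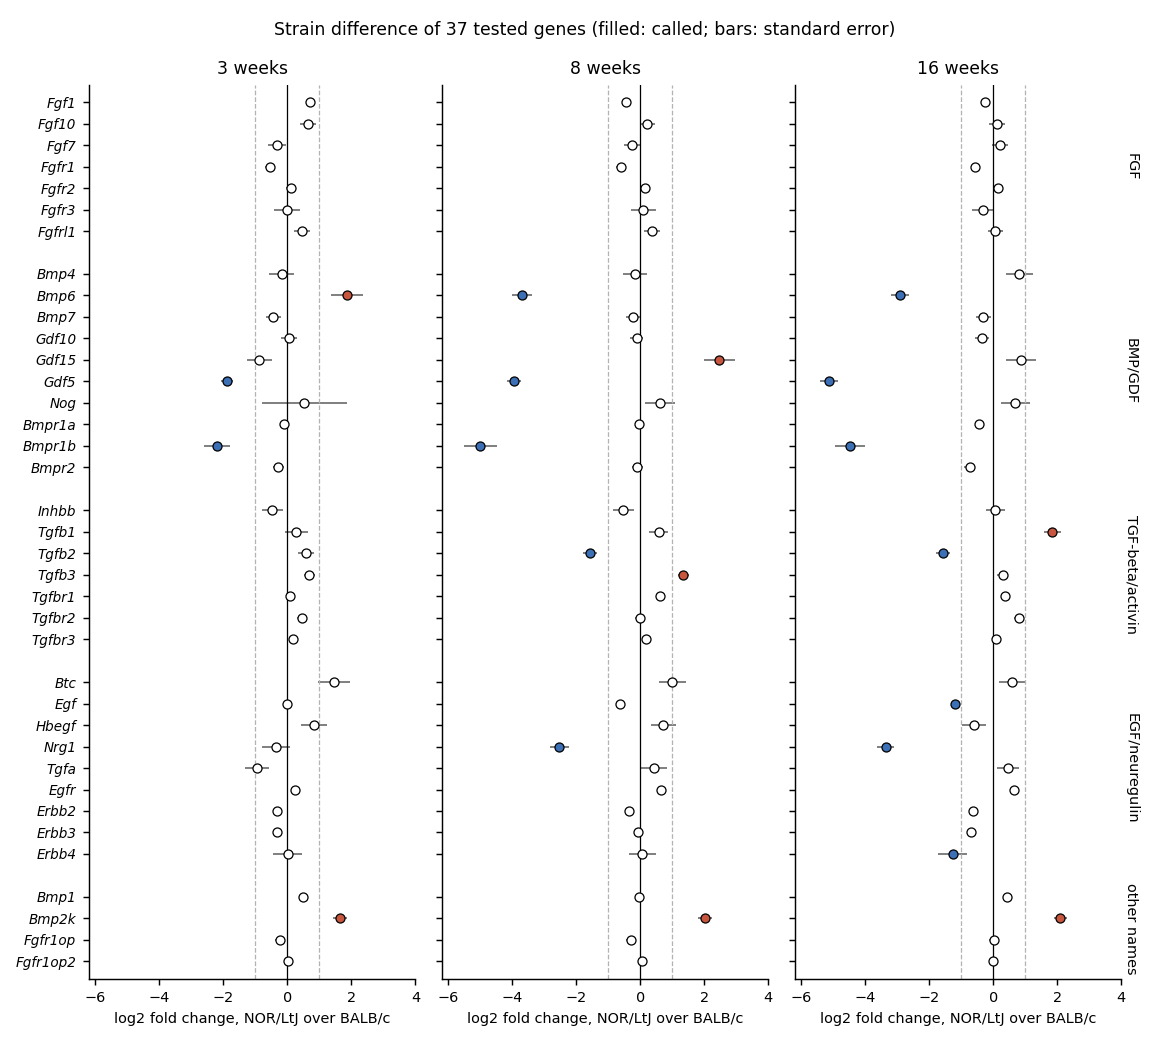
Log2 fold change of NOR/LtJ over BALB/c (horizontal axis) for the 37 tested genes, grouped by family, at 3, 8 and 16 weeks, with bars for the standard error, dashed lines at -1 and 1, and filled symbols for called genes (red higher, blue lower in NOR). No FGF gene is filled, and Gdf5 and Bmpr1b are filled on the left at every age.

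The sequence just upstream of the transcription start is shown for 4 genes because 3 of them (Bmpr1b, Bmp6 and Tgfb2) were lower together in adult NOR LGs and the other, Bmp2k, was higher at every age. Each window holds the 250 bases before the RefSeq start on the GRCm38.p6 reference, written 5′ to 3′ on the gene's strand. Capitals mark exact matches, on either strand and with overlaps allowed, to 6 motifs. TATAAA is the core promoter box that binds the TATA-binding protein. GGGCGG is the GC box bound by SP1 and its relatives. CACGTG is an E-box bound by factors such as MYC and USF. TGANTCA is the element bound by AP-1, the FOS and JUN complex. GGCGCC is a GC-rich sequence that SMAD proteins of the BMP branch bind. CAGACA contains the short sequence that SMAD proteins of the TGF-beta branch bind. The windows are chr3:141982265-141982514 on the minus strand for Bmpr1b, chr13:38345466-38345715 on the plus strand for Bmp6, chr1:186705990-186706239 on the minus strand for Tgfb2 and chr5:96997439-96997688 on the plus strand for Bmp2k. A RefSeq window was given for 52 of the 75 genes.
Bmpr1b: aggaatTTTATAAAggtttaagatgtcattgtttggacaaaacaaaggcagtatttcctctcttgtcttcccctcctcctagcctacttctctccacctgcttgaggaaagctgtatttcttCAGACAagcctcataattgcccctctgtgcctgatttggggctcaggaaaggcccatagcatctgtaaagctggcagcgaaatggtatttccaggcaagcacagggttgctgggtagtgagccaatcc
Bmp6: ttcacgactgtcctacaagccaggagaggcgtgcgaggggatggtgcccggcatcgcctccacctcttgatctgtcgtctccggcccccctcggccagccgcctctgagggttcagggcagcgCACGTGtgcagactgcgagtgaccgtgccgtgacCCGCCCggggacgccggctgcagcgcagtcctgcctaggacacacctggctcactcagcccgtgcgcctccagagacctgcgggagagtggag
Tgfb2: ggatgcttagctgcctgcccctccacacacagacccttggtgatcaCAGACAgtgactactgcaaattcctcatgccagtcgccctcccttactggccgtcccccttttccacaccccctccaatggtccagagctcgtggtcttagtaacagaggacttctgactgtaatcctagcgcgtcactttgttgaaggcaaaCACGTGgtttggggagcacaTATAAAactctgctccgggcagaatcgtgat
Bmp2k: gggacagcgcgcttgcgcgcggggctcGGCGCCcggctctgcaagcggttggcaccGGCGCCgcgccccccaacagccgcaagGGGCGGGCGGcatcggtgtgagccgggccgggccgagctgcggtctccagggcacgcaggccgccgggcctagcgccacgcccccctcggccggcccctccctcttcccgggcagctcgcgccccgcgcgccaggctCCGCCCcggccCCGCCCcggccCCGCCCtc

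These windows differ in base composition, with 46.8% G and C in Bmpr1b, 53.6% in Tgfb2, 68.8% in Bmp6 and 83.2% in Bmp2k, where the median of 32851 windows was 52.4%. The Tgfb2 window holds the core promoter box 31 bases before the start, a motif present in 12.4% of all windows, and an E-box 51 bases before it, which 6.02% hold. An E-box also occurs once in Bmp6, at 127 bases. Bmp2k holds 5 GC boxes and 2 of the BMP-branch SMAD motif, found in 32.7% and 9.59% of windows, and Bmp6 holds 1 GC box. The other SMAD motif occurs once in Bmpr1b and once in Tgfb2, and in 17.1% of all windows. The 2 matches to TATAAA in Bmpr1b lie 244 and 242 bases before its start, on opposite strands and overlapping within 1 stretch. The AP-1 element, present in 6.75% of all windows, is in no window of these 4. No motif is shared by all 3 of Bmpr1b, Bmp6 and Tgfb2, and a match in these letters shows neither binding nor a cause.

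Among BMP and GDF ligands, Gdf5 and Bmp6 had the largest strain differences at 8 and 16 weeks of the 6 tested. Gdf5 (chr2:155941025-155945364, mm10) encodes a BMP-type ligand known for its role in joint formation that signals preferentially through the type I receptor encoded by Bmpr1b. In BALB/c LGs its level was 26.0, 30.5 and 27.8 CPM at 3 weeks, 18.5, 18.9 and 24.7 CPM at 8 weeks and 14.8, 16.4 and 12.3 CPM at 16 weeks. In NOR it was 5.21, 9.13 and 9.32 CPM, then 1.11, 1.67 and 1.23 CPM, then 0.207, 0.431 and 0.638 CPM. The higher NOR values at 3 weeks were in the libraries rich in parotid markers. All NOR libraries were below all BALB/c libraries at each age, and within NOR each age lay below the one before. Gdf5 was 3.69-fold lower in NOR at 3 weeks (log2 fold change -1.88, SE 0.19, edgeR adjusted p = 6.3e-07), 15.5-fold lower at 8 weeks (-3.95, SE 0.22, edgeR adjusted p = 2.0e-10) and 34.9-fold lower at 16 weeks (-5.12, SE 0.29, edgeR adjusted p = 1.7e-10).

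Bmpr1b (chr3:141837136-141982251) encodes that type I receptor. Its BALB/c libraries held 27 to 64 reads each at all ages (1.89 to 4.87 CPM). The NOR libraries held 6, 8 and 4 reads at 3 weeks, 1, 2 and 1 at 8 weeks and 1, 5 and 1 at 16 weeks. At 3 weeks that was 0.429, 0.761 and 0.703 CPM, the higher values again in the libraries rich in parotid markers. With so few reads the ratio of summed normalised reads carries a wide counting interval: BALB/c exceeded NOR by 4.66-fold at 3 weeks (exact 95% interval 2.83 to 8.11), by 34.5-fold at 8 weeks (13.1 to 129) and by 22.1-fold at 16 weeks (10.5 to 55.7), intervals that cover counting error only. The gene was called lower in NOR at each age, with log2 fold changes of -2.19 (SE 0.41, edgeR adjusted p = 9.0e-04), -5.01 (SE 0.51, edgeR adjusted p = 7.3e-07) and -4.48 (SE 0.46, edgeR adjusted p = 2.8e-07).

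Bmp6 (chr13:38345716-38499728), a BMP ligand best known for regulating hepcidin and iron balance, changed the direction of its strain difference with age. At 3 weeks BALB/c libraries held only 2, 2 and 3 reads and NOR libraries 5, 8 and 4, a 3.73-fold higher normalised level in NOR (exact 95% counting interval 1.47 to 10.7). At 8 weeks the BALB/c libraries stood at 4.17, 5.38 and 3.22 CPM and the NOR libraries at 0.293, 0.372 and 0.294 CPM. At 16 weeks the values were 4.37, 3.35 and 4.95 CPM in BALB/c and 0.552, 0.627 and 0.425 CPM in NOR. The adult groups were far apart, with Bmp6 lower in NOR by 13-fold at 8 weeks (log2 fold change -3.70, SE 0.31, edgeR adjusted p = 4.3e-08) and by 7.53-fold at 16 weeks (-2.91, SE 0.28, edgeR adjusted p = 1.2e-07). The opposite call at 3 weeks (1.87, SE 0.49, edgeR adjusted p = 0.018) was lost without BALB/c 3 weeks replicate 1 (1.64) or NOR 3 weeks replicate 2 (1.58), and without the 4 libraries rich in parotid markers, which leaves 1 NOR library at 3 weeks, it came to 1.23 and was not called. With parotid markers as a covariate it was 1.65 and was not called either (edgeR adjusted p = 0.056). The NOR library of 3 weeks with a parotid marker sum of 60.2 CPM had 0.357 CPM of Bmp6. The others, with 54044 and 54343 CPM of those markers, had 0.761 and 0.703 CPM. In BALB/c at 3 weeks, replicate 2, with 11872 CPM of those markers, had 0.161 CPM of Bmp6. Replicates 1 and 3 had 0.109 and 0.190 CPM. The part of parotid tissue in the 3-week difference was not tested.

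Gdf15, a stress-induced member of the superfamily that signals through GFRAL, was called between the strains at 8 weeks only. Its levels at that age were 0.472, 0.350 and 0.339 CPM in BALB/c and 2.87, 2.42 and 1.18 CPM in NOR, a 5.55-fold higher level in NOR (log2 fold change 2.47, SE 0.48, edgeR adjusted p = 6.7e-04). At 16 weeks it was 0.190, 0.381 and 1.20 CPM against 1.17, 0.941 and 1.38 CPM; the groups overlapped and the difference of 0.88 did not pass (edgeR adjusted p = 0.12), although it came to 2.07 and was called without BALB/c replicate 3. The other tested ligands, Bmp4, Bmp7 and Gdf10, and the antagonist Nog, which binds BMPs outside the cell, were not called between strains at any age. Their log2 fold changes ran from -0.44 (Bmp7, 3 weeks) to 0.82 (Bmp4, 16 weeks).

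The remaining BMP receptors stayed under the fold cutoff at every age. Bmpr1a, the other type I receptor, was at 89.5, 89.9 and 89.8 CPM in BALB/c and 73.4, 55.7 and 69.2 CPM in NOR at 16 weeks. The type II receptor gene Bmpr2 was at 11.8, 13.5 and 12.2 CPM against 9.60, 5.88 and 7.23 CPM. In both cases NOR was below BALB/c without overlap, and the differences of -0.45 for Bmpr1a (edgeR adjusted p = 0.0016) and -0.74 for Bmpr2 (edgeR adjusted p = 0.0013) passed the adjusted p but not the fold cutoff.

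Because the ligands moved unequally, their proportions differed between the strains. Gdf5 made up 61.7% ± 2.4 (SD, n = 3) of the summed RPKM of the BMP and GDF ligands in BALB/c at 3 weeks, 60.0% ± 3.6 at 8 weeks and 52.4% ± 7.2 at 16 weeks. In NOR its share was 37.6% ± 8.3, then 9.61% ± 1.9, then 3.39% ± 1.2. The summed RPKM itself was 14.9 ± 1.7 in BALB/c and 6.08 ± 0.97 in NOR at 8 weeks, and 11.9 ± 0.16 against 5.22 ± 1.0 at 16 weeks. Gdf10 and Bmp7, whose own levels were not called different, accounted for 23.2% ± 3.9 and 18.1% ± 3.4 of the smaller NOR total at 16 weeks.

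**Figure D2:**
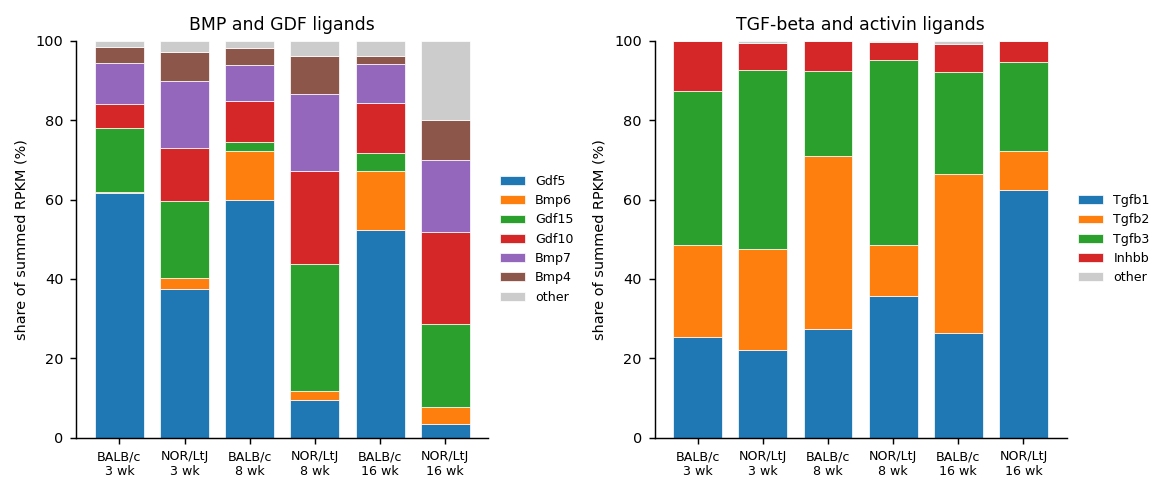
Share of the summed RPKM (vertical axis, percent; mean of 3 libraries) that each ligand gene took among the BMP and GDF ligands (left) and the TGF-beta and activin ligands (right) in the 6 groups. Gdf5 falls from 37.6% to 3.39% across the NOR groups while it stays at 52.4% or above in BALB/c, and Tgfb1 takes 62.4% in NOR at 16 weeks.

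The 3 TGF-beta ligand genes behaved differently from one another. Tgfb2 (chr1:186623186-186705992) was lower in adult NOR LGs, Tgfb3 was higher at 8 weeks, and Tgfb1 (chr7:25687002-25704996), the isoform made by many leukocytes, was higher at 16 weeks. For Tgfb2, BALB/c libraries were at 9.36, 7.41 and 6.43 CPM at 8 weeks and 9.50, 9.59 and 9.95 CPM at 16 weeks. The NOR libraries were at 2.46, 2.48 and 2.82 CPM and at 2.55, 3.22 and 4.25 CPM, below every BALB/c library of the same age. The difference was 2.96-fold at both ages (log2 fold change -1.57, SE 0.23, edgeR adjusted p = 4.0e-05 at 8 weeks and -1.56, SE 0.22, edgeR adjusted p = 1.0e-05 at 16 weeks). At 3 weeks the groups overlapped, with 2.74 to 3.55 CPM in BALB/c and 2.86, 6.18 and 5.80 CPM in NOR, the higher values again in the libraries rich in parotid markers.

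Tgfb1 in BALB/c was 2.47, 2.74 and 3.27 CPM at 16 weeks. In NOR it was 5.32, 13.1 and 11.9 CPM at that age, 3.57-fold higher (log2 fold change 1.84, SE 0.27, edgeR adjusted p = 1.4e-05), and the 2 libraries with the most Tgfb1 were also those with the highest B cell marker sums (449 and 281 CPM against 136 CPM). At 8 weeks it was 1.73 to 2.37 CPM in BALB/c and 2.53 to 3.69 CPM in NOR, without overlap, but the difference of 0.57 did not pass (edgeR adjusted p = 0.17). Tgfb3 was 2.75, 2.73 and 2.60 CPM in BALB/c and 8.27, 6.45 and 5.64 CPM in NOR at 8 weeks, 2.52-fold higher in NOR (log2 fold change 1.33, SE 0.17, edgeR adjusted p = 1.1e-05). It also passed the adjusted p at 3 weeks with a smaller difference of 0.68 (edgeR adjusted p = 0.011), and at 16 weeks the groups overlapped, at 4.04 to 4.80 and 4.35 to 6.17 CPM. Inhbb, the activin beta B subunit gene, was not called at any age. Tgfb1 made up 35.6% ± 3.1 of the summed TGF-beta and activin ligand RPKM in NOR at 8 weeks and 62.4% ± 7.2 at 16 weeks (SD, n = 3), while in BALB/c Tgfb2 held the largest share at both ages, 43.6% ± 6.1 and 40.2% ± 2.8.

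The TGF-beta receptors showed small differences, with little spread among libraries for Tgfbr1 and more for Tgfbr2. The type I receptor gene Tgfbr1 was 22.3, 22.3 and 22.2 CPM in BALB/c and 32.2, 34.8 and 34.3 CPM in NOR at 8 weeks (log2 fold change 0.60, SE 0.07, edgeR adjusted p = 2.7e-06), and 27.8, 26.6 and 28.5 against 34.2, 37.6 and 35.8 CPM at 16 weeks. The type II receptor gene Tgfbr2 was 33.3, 33.3 and 39.6 CPM in BALB/c and 47.8, 76.4 and 59.0 CPM in NOR at 16 weeks, its highest value in the library with the most B and T cell marker reads (0.79, SE 0.14, edgeR adjusted p = 1.0e-04). These groups did not overlap, but neither gene reached the fold cutoff. Tgfbr3, the betaglycan co-receptor gene, stayed between 12 and 17.8 CPM in all 18 libraries and did not pass in any strain comparison.

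In the EGF family the leading difference was in Nrg1 (chr8:31818028-31918203), the neuregulin gene whose products bind ERBB3 and ERBB4. At 3 weeks the groups overlapped, at 1.04, 0.726 and 0.886 CPM in BALB/c and 0.786, 0.475 and 0.879 CPM in NOR. In BALB/c it then stood at 4.40, 7.90 and 3.72 CPM at 8 weeks and 14.2, 14.4 and 18.3 CPM at 16 weeks. In NOR it remained at 0.762, 0.806 and 1.18 CPM and at 1.10, 1.53 and 2.02 CPM, so that all adult NOR libraries were below all adult BALB/c libraries. The gene was 5.76-fold lower in NOR at 8 weeks (log2 fold change -2.53, SE 0.29, edgeR adjusted p = 3.0e-06) and 10.3-fold lower at 16 weeks (-3.37, SE 0.26, edgeR adjusted p = 9.9e-09). Immediate-early genes, which tissue handling can induce, summed to 98.3 to 103 CPM in BALB/c and 102 to 130 CPM in NOR at 8 weeks. At 16 weeks these sums were 160 to 221 and 118 to 141 CPM. Circadian clock genes summed to 363 to 447 CPM in BALB/c and 311 to 336 CPM in NOR at 8 weeks. Their sums at 16 weeks were 417 to 500 and 193 to 238 CPM. The part of either in the Nrg1 differences was not tested.

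Egf (chr3:129677575-129755322), whose product stimulates the ocular surface epithelium, was lower in NOR at 16 weeks. Its level was 75.5, 75.4 and 77.9 CPM in BALB/c and 80.1, 73.8 and 72.1 CPM in NOR at 3 weeks, and the groups overlapped. At 8 weeks it was 129, 126 and 129 CPM against 75, 79 and 91.5 CPM, and at 16 weeks 139, 135 and 115 CPM against 70.4, 44.2 and 57.5 CPM. The adult groups did not overlap. The difference was -0.64 at 8 weeks (SE 0.12, edgeR adjusted p = 4.5e-04), under the fold cutoff, and -1.18 at 16 weeks (SE 0.12, edgeR adjusted p = 2.7e-07), which came to -0.99 without NOR replicate 2, the library with the lowest acinar marker sum. Markers of the submandibular granular duct, a site of very high Egf expression in male mice, summed to at most 1.05 CPM in any library. That highest sum was in NOR 3 weeks replicate 3, which was rich in parotid markers. The part of salivary tissue in the Egf values was not tested. About 10.6% of the Egf exon length overlaps another annotated gene, 6330410L21Rik, where reads were not counted for either.

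The other tested EGF family ligands, Btc (betacellulin), Hbegf and Tgfa, were low and were not called between strains at any age. Btc at 3 weeks was 0.164, 0.726 and 0.317 CPM in BALB/c and 0.857, 1.24 and 1.05 CPM in NOR, a difference of 1.45 that did not pass (edgeR adjusted p = 0.058) and was called only without BALB/c replicate 2 (2.10). Areg and Ereg, which encode amphiregulin and epiregulin, had 2 and 10 reads in all 18 libraries together and were not tested.

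Of the 4 receptor genes, Erbb4 alone was called, at 16 weeks, and weakly. It was 2.71, 2.97 and 1.92 CPM in BALB/c and 1.86, 0.588 and 0.744 CPM in NOR (log2 fold change -1.27, SE 0.44, edgeR adjusted p = 0.023). The call was lost without BALB/c replicate 1 (-1.21) or 2 (-1.16) and without NOR replicate 2 (-0.83) or 3 (-1.10). Erbb3, the kinase-impaired neuregulin receptor gene, was 64.5, 60.1 and 62.3 CPM against 41.8, 32.4 and 42.8 CPM at 16 weeks, and its partner Erbb2 was 40.2, 38.5 and 38.1 CPM against 27.8, 21.5 and 26.2 CPM. Both were lower in all NOR libraries, by -0.69 for Erbb3 (SE 0.10, edgeR adjusted p = 2.2e-05) and -0.64 for Erbb2 (SE 0.09, edgeR adjusted p = 9.8e-06), within the fold cutoff. Egfr went the other way, at 8.80 to 11.9 CPM in BALB/c and 14.4 to 17.1 CPM in NOR at 8 weeks and at 10.5 to 12.3 against 16.7 to 18.6 CPM at 16 weeks, a difference of 0.64 at each of these ages (edgeR adjusted p = 4.2e-04 and 1.5e-04).

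**Figure D3:**
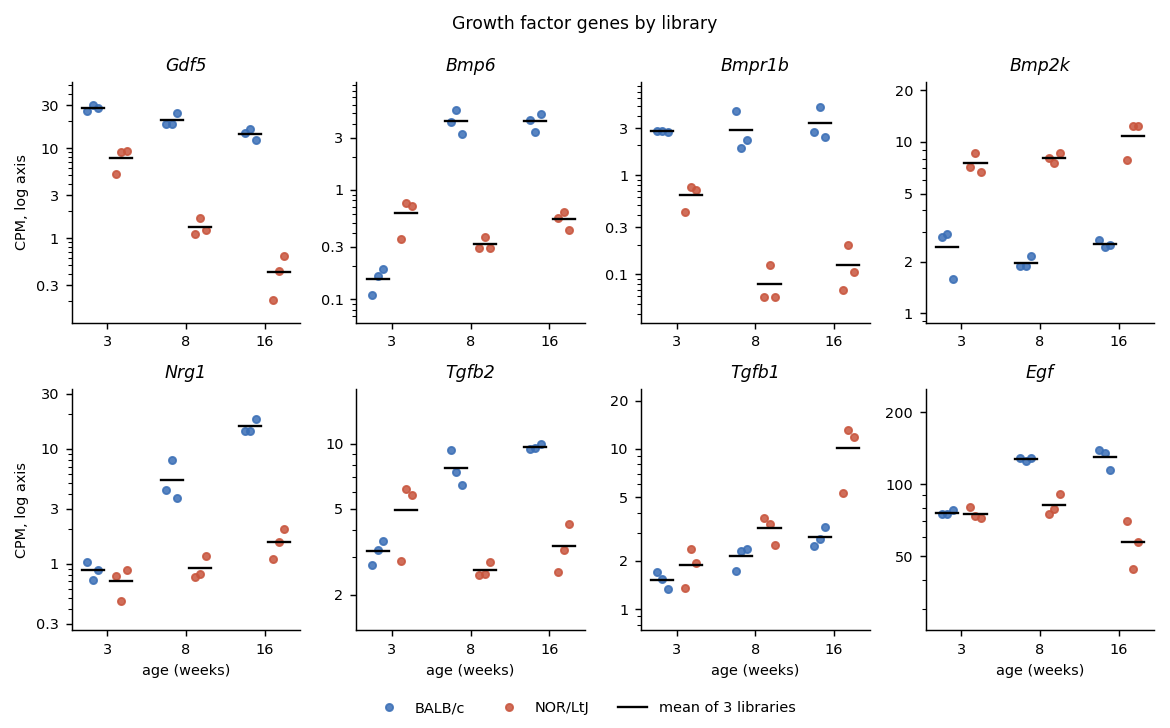
CPM of 8 genes in each of the 18 libraries (points, vertical log axis) by age in weeks, BALB/c in blue and NOR/LtJ in red, with the mean of the 3 libraries of a group as a bar. The strains overlap at 3 weeks for Nrg1, Tgfb2, Tgfb1 and Egf and are apart at 16 weeks for all 8 genes.

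The FGF genes gave no call between the strains. None of the 7 tested genes was called in NOR against BALB/c at 3, 8 or 16 weeks by edgeR or by DESeq2, and 3, 2 and 2 of them had an unadjusted p under 0.05. Of all genes 5.26%, 11.6% and 19.4% were called, so a count of 0 of 7 is near the background. Fgf1, which made up 66.7% to 86.1% of the summed paracrine FGF ligand RPKM in the 6 groups, crossed over with age. It was 7.72, 10.4 and 9.43 CPM in BALB/c and 16.2, 14.7 and 13.7 CPM in NOR at 3 weeks (log2 fold change 0.72, edgeR adjusted p = 8.5e-04), but 19, 21.4 and 22.3 against 17.4, 16.3 and 12.5 CPM at 8 weeks (-0.45, edgeR adjusted p = 0.0082). Neither difference reached the fold cutoff, and the libraries did not overlap at either age.

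The branching ligand Fgf10 and its relative Fgf7 were low, and their libraries overlapped between the strains at each age. Fgf10 ranged from 1.31 to 3.76 CPM and Fgf7 from 0.744 to 1.59 CPM over all libraries. Their receptor gene Fgfr2 was at 4.46 to 9.67 CPM, with the higher values at 3 weeks in both strains, and neither it nor Fgfr3 nor the decoy receptor gene Fgfrl1 passed in any strain comparison. Fgfr1, the most abundant FGF receptor gene, was lower in NOR throughout: 17.2, 20.7 and 17.7 against 13.7, 11.9 and 12.3 CPM at 3 weeks, 17.8, 20.3 and 19.6 against 14.3, 8.87 and 14.5 CPM at 8 weeks, and 19.3, 20.6 and 23.2 against 12.8, 14.8 and 15.1 CPM at 16 weeks. The differences of -0.54, -0.62 and -0.56 passed the adjusted p (edgeR, 0.018, 0.0027 and 0.0023) without reaching the fold cutoff, and NOR was below BALB/c without overlap each time.

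**Figure D4:**
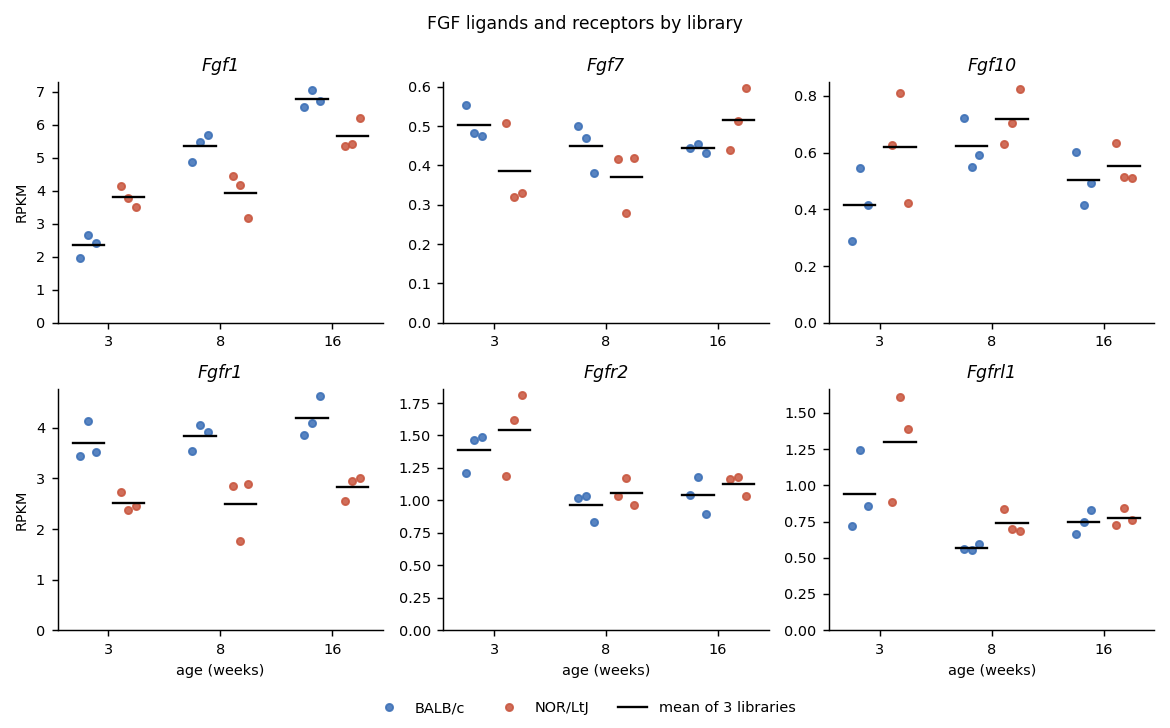
RPKM (vertical axes, linear from 0) of 3 FGF ligand genes and 3 FGF receptor genes in each library by age in weeks, BALB/c in blue and NOR/LtJ in red, with bars for the mean of 3 libraries. Fgf1 climbs with age in BALB/c, Fgfr1 is lower in NOR at each age, and the other 4 genes overlap between the strains at most ages.

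Of the genes that share only a name pattern, Bmp2k (chr5:96997689-97091048), encoding a kinase of the endocytic machinery named for its induction by BMP2, was higher in NOR at every age. It was 2.79, 2.91 and 1.58 CPM in BALB/c and 7.14, 8.65 and 6.68 CPM in NOR at 3 weeks, 1.89, 1.89 and 2.14 against 8.09, 7.5 and 8.58 CPM at 8 weeks, and 2.66, 2.44 and 2.5 against 7.80, 12.5 and 12.3 CPM at 16 weeks. The groups were clear of each other, with differences of 3.12-fold, 4.05-fold and 4.27-fold (edgeR adjusted p = 2.0e-05, 9.1e-07 and 9.0e-08). Bmp1, Fgfr1op and Fgfr1op2 were not called.

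The 4 genes called at all ages were set beside their chromosomal neighbours, where the share of all genes called was 5.26%, 11.6% and 19.4% at 3, 8 and 16 weeks (8.93% and 14.1% called higher at 8 and 16 weeks). No test was made of these small counts. Within 1 Mb of Bmp6, 1 of 11 other tested genes was called at 8 and at 16 weeks (higher) and none at 3 weeks. Near Gdf5, 0, 3 and 5 of 35 were called at the 3 ages. Near Bmpr1b, 1 of 9 was called lower at 3 weeks and 4 and 5 were called higher at 8 and 16 weeks, while Bmpr1b itself was lower. Near Bmp2k, 1 of 5 was called, higher, at each age.

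From 3 to 8 weeks, the period of maturation, 7 of these genes were called in BALB/c and 3 in NOR. In BALB/c 5 of the 37 rose and 2 fell, where 4.37% of all genes rose and 2.58% fell (6.95% in all). In NOR 1 rose and 2 fell, where 8.88% rose and 3.27% fell (12.2%). By the adjusted p alone 16 passed in BALB/c and 11 in NOR, beside 27.9% and 33.8% of all genes. The called genes did not overlap between the ages, as was true of 45.0% of all genes in BALB/c and 46.4% in NOR. The counts themselves were not compared by a test, but the change was compared gene by gene. The age comparisons use the same libraries as the strain comparisons and are not independent of them.

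In BALB/c, Bmp6 rose by 4.74 on the log2 scale (SE 0.35, edgeR adjusted p = 1.1e-08; ratio of summed reads 27.7-fold, exact 95% counting interval 13.2 to 69.9), Nrg1 by 2.55 (SE 0.30, edgeR adjusted p = 2.9e-06), Tgfb2 by 1.28 (SE 0.23, edgeR adjusted p = 2.7e-04) and Fgf1 by 1.20 (SE 0.13, edgeR adjusted p = 8.5e-07). Gdf15 fell by 3.14 (SE 0.47, edgeR adjusted p = 5.0e-05), from 2.66 to 3.89 CPM down to 0.339 to 0.472 CPM. Tgfa, which encodes another ligand of EGFR, fell by 1.61 (SE 0.38, edgeR adjusted p = 0.0032). In NOR none of these 6 was called over the same interval. Tgfbr2 differed by 0.98 in BALB/c (edgeR adjusted p = 5.4e-05), just short of the fold cutoff, which it reached without BALB/c 3 weeks replicate 1 (1.01) or 2 (1.10) or 8 weeks replicate 2 (1.03).

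Nog rose in both strains. It had 0, 2 and 0 reads in BALB/c and 1, 0 and 1 in NOR at 3 weeks, and 6, 7 and 14 against 12, 21 and 13 at 8 weeks. Summed and normalised, that was 14-fold in BALB/c (exact 95% counting interval 3.52 to 122; edgeR adjusted p = 0.0027) and 13.8-fold in NOR (3.62 to 118; edgeR adjusted p = 0.0015). Nog was the 1 gene of the 37 that was called in both strains from 3 to 8 weeks.

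In NOR the genes that fell were Gdf5, by 2.5 (SE 0.26, edgeR adjusted p = 8.2e-07), and Bmpr1b, by 2.80 (SE 0.69, edgeR adjusted p = 0.0039; -2.76 and not called without the 4 libraries rich in parotid markers). Tgfb2 had a difference of -0.88 in NOR (edgeR adjusted p = 0.011), under the fold cutoff, a value that came to -1.21 and was called without NOR 3 weeks replicate 1. The test of the difference between the strains' changes called 7 genes from 3 to 8 weeks. The strain difference moved down for Bmp6 (-5.57, SE 0.59, edgeR adjusted p = 1.5e-05), Bmpr1b (-2.82), Nrg1 (-2.16), Tgfb2 (-2.16), Gdf5 (-2.07) and Fgf1 (-1.17), and up for Gdf15 (3.35). Among all genes 0.927% were called down and 1.29% up in this test (2.22%), and by the adjusted p alone 9 of the 37 passed, beside 3.76%. Without the 4 libraries rich in parotid markers, 3 of the 7 were called (Bmp6, Gdf5 and Fgf1). The call for Bmpr1b was lost without any 1 of 12 libraries (-3.22 to -2.38) and that for Nrg1 without any 1 of 7 (-2.3 to -2.0).

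**Figure D5:**
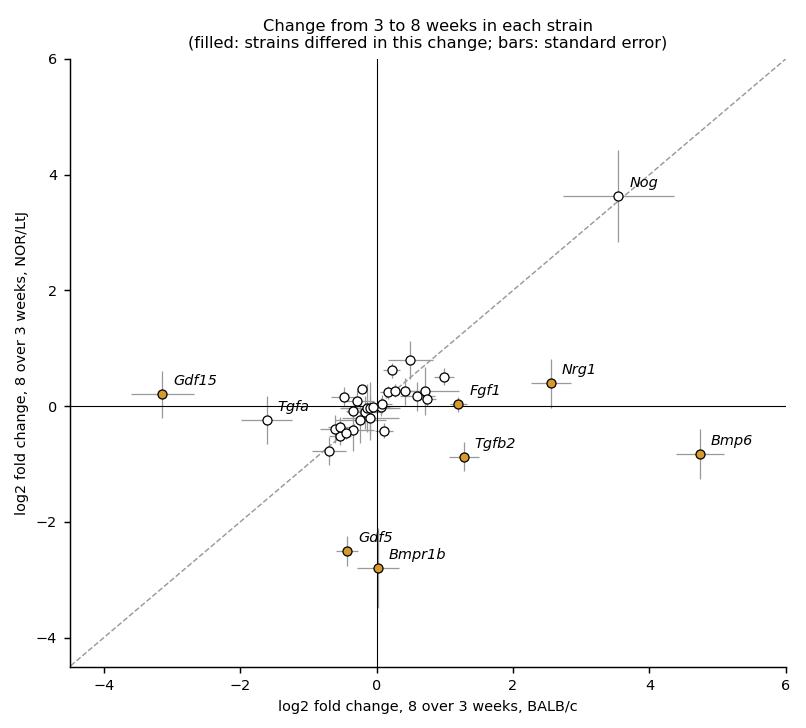
Log2 fold change from 3 to 8 weeks in BALB/c (horizontal axis) and in NOR/LtJ (vertical axis) for the 37 tested genes, with bars for the standard error, a dashed line of equal change, and filled symbols for genes whose change differed between the strains. Nog lies on the line, whereas Bmp6, Nrg1 and Tgfb2 rise in BALB/c only, and Gdf5 and Bmpr1b fall in NOR only at the fold cutoff used.

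Between 8 and 16 weeks few of these genes were called. In BALB/c only Nrg1 was, rising by 1.56 (SE 0.22, edgeR adjusted p = 0.0013), where 0.426% of all genes rose and 0.015% fell (0.441%). In NOR, where 8.88% rose and 0.778% fell (9.66%), Tgfb1 rose by 1.66 (SE 0.26, edgeR adjusted p = 1.4e-04) and Gdf5 fell by a further 1.70 (SE 0.41, edgeR adjusted p = 0.0036). By the adjusted p alone 3 passed in BALB/c and 9 in NOR, beside 1.76% and 36.9% of all genes. None of the called genes overlapped between these ages, which was so for 26.1% of all genes in BALB/c and 44.6% in NOR. From 3 to 16 weeks the strain difference moved down for 6 genes and up for 3, where 3.15% and 7.51% of all genes did (10.7%); by the adjusted p alone 11 passed, beside 24.9%. Without the 4 libraries rich in parotid markers the calls for Bmpr1b (-1.79), Gdf15 (1.77), Tgfb1 (2.03) and Tgfa (1.33) given next were lost. Those that moved down were Bmp6 (-4.78), Gdf5 (-3.24), Nrg1 (-3.00), Bmpr1b (-2.29), Tgfb2 (-2.16) and Egf (-1.17), and those that moved up were Gdf15 (1.75), Tgfb1 (1.56) and Tgfa (1.41). From 8 to 16 weeks it moved for Tgfb3 alone (-1.04, edgeR adjusted p = 0.015), with 0.807% of all genes moving down and 2.04% up (2.85%), and 3 passed by the adjusted p alone, beside 8.01%. DESeq2 gave -0.99 for Tgfb3, short of the fold cutoff.

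Other genes of the same pathways were taken as 3 lists by function. Of 92 tested genes in these lists, 1 was called at 3 weeks, 5 at 8 weeks and 13 at 16 weeks, or 1.09%, 5.43% and 14.1%, beside 5.26%, 11.6% and 19.4% of all genes. The 7 tested SMAD genes, the shared intracellular carriers of BMP and TGF-beta signals, gave 0 calls at all 3 ages by edgeR and by DESeq2, with 1, 1 and 3 at an unadjusted p under 0.05. Of 4 tested activin and related type I and II receptor genes of the Acvr series, 1 was called, Acvrl1 at 16 weeks (1.05, edgeR adjusted p = 7.4e-05), a call lost without BALB/c replicate 1 (0.999) or 2 (0.95) or NOR replicate 2 (0.89).

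In the list of 46 tested BMP and TGF-beta pathway genes, Chrd, which encodes the BMP antagonist chordin, was the 1 gene called at 3 weeks (1.09, edgeR adjusted p = 0.021), and it was not called when any of 4 single 3-week libraries was left out (BALB/c replicates 1 and 2, 1.02 and 0.99, and NOR replicates 2 and 3, 0.86 and 1.06). At 8 weeks 4 of the 46 were higher in NOR, among them Thbs1, encoding the TGF-beta activator thrombospondin 1 (2.68, edgeR adjusted p = 2.9e-06), Tgfbi (1.68, edgeR adjusted p = 7.8e-05) and Ltbp2 (1.56, edgeR adjusted p = 0.036), the last named after its values were seen. Ltbp2 was not called when any 1 of the 6 libraries compared was left out (1.33 to 1.87). At 16 weeks 5 were higher, among them Tgfbi (2.18, edgeR adjusted p = 8.1e-07), Ltbp2 (2.11, edgeR adjusted p = 4.1e-04) and the BMP target gene Id3 (1.58, edgeR adjusted p = 3.1e-04), and 3 were lower, among them Thbs1 (-1.59, edgeR adjusted p = 2.4e-05) and the inhibin subunit gene Inha (-1.32, edgeR adjusted p = 4.4e-07). Thbs1 was 2.69 CPM on average in BALB/c at 8 weeks and 44.1 CPM at 16 weeks, beside 17.4 and 14.6 CPM in NOR, so its reversal lay in the BALB/c libraries, in which the immediate-early genes were also higher at 16 weeks; their part in it was not tested.

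Among 26 tested FGF and ERK pathway genes, none was called at 3 weeks by edgeR or DESeq2 (6 at an unadjusted p under 0.05), and Spry1, a feedback inhibitor gene, was higher in NOR at 8 weeks (1.13, edgeR adjusted p = 2.3e-04), though not without BALB/c replicate 3 (0.98) or NOR replicate 2 (0.99). At 16 weeks Spred3 (2.79, edgeR adjusted p = 4.0e-04) and the heparan sulphate proteoglycan gene Gpc1 (1.40, edgeR adjusted p = 0.012; not called without BALB/c replicate 1, 1.07, or NOR replicate 2, 1.23) were higher. The ERK-responsive transcription factor gene Etv1 was lower, with a mean of 114 CPM in BALB/c against 39.7 CPM in NOR (-1.53, edgeR adjusted p = 1.9e-09). Among 20 tested ErbB pathway genes, none was called at 3 or 8 weeks by either tool (6 and 9 at an unadjusted p under 0.05). At 16 weeks Adam17, the sheddase that releases several EGF family ligands, was higher (1.13, edgeR adjusted p = 2.8e-06; 0.94 without NOR replicate 2), and Errfi1, a feedback inhibitor of ERBB receptors, was lower (-1.80, edgeR adjusted p = 5.6e-08), with means of 61.1 CPM in BALB/c against 17.6 CPM in NOR. Immediate-early genes summed to 160 to 221 CPM in BALB/c and 118 to 141 CPM in NOR at that age. Circadian clock genes summed to 417 to 500 CPM and 193 to 238 CPM in the same groups. The part of either in these differences was not tested.

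The 30 genes with reads that were too few to test had at most 34 reads in a library. The highest totals over the 18 libraries were 100 reads for Bmp3, 73 for Gdf11, 55 for Bmp2 and 49 for Fgf13. Gdf11 stood out for its distribution, with 3, 34 and 15 reads in the NOR libraries of 16 weeks and 0 to 4 in every other library, and Fgf13 had 4, 20 and 4 reads in those libraries and at most 5 elsewhere. Fgf16, a paracrine FGF, had 10, 5 and 11 reads in BALB/c at 3 weeks and at most 4 in any other library. Grem1 had 1 read in all, Inhba 7 and Fgf2 14. These genes were not part of the test.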

How the data were processed

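Poly(A) RNA of 18 LG samples was sequenced with single-end reads from a stranded library kit. The authors aligned the reads to mm10 with HISAT2 and counted them per gene over exons with featureCounts 1.6.2, without multi-mapping reads or reads that overlap several genes, and deposited raw counts. No strand option was given in the sources used here, so overlapping antisense genes are uncertain.

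Groups followed the strain and age labels. CPM were scaled by TMM factors, and RPKM were these divided by the exon length in the deposited table. Genes that passed filterByExpr (minimum count 10, minimum total 15) were tested with the quasi-likelihood F-test of edgeR 4.0.16 in R 4.3.3 on all 18 libraries with 1 mean per group, with Benjamini-Hochberg adjustment over 13376 genes. The study used DESeq2, which served as an alternative here (1.42.0) with its cutoffs of adjusted p 0.05 and log2 fold change 1. How far the strain difference itself moved between ages was tested as a contrast of the same fit. Scripts were tested on simulated counts. Python 3.11.15 and scipy 1.17.1 gave exact counting intervals (95%), which cover counting error only, and matplotlib 3.10.9 the plots.

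Any gene of the 75 could be named. Of each pathway list, up to 3 called genes per direction and comparison with the largest log2 fold change were named, except results that are not reported here. The 75 genes and the lists were chosen with earlier results of these data known. Same-numbered libraries came from different mice and were not treated as pairs. The 3-week libraries are separate mice; the adult libraries are separate pools. Total counts ranged from 6378613 to 20493076 per library, and genes with few reads carry wide errors.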

Additional observations from a re-analysis of the deposited data

Results flagged for a closer look

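The strain difference (log2 of NOR/LtJ over BALB/c) was tested for change between ages as a contrast within the edgeR fit, and 17 gene and interval pairs were called. These tests share libraries with one another and with the strain comparisons. From 3 to 8 weeks the difference moved by -5.57 for Bmp6 (edgeR adjusted p = 1.5e-05), -2.82 for Bmpr1b (edgeR adjusted p = 0.044), -2.16 for Nrg1 (edgeR adjusted p = 0.034), -2.16 for Tgfb2 (edgeR adjusted p = 0.0012), -2.07 for Gdf5 (edgeR adjusted p = 7.9e-04), -1.17 for Fgf1 (edgeR adjusted p = 0.0011) and 3.35 for Gdf15 (edgeR adjusted p = 0.0048). The calls for Bmp6, Gdf5 and Fgf1 also held without the 4 libraries rich in parotid markers. In that setting Tgfb2 came to -1.44, Nrg1 to -2.18, Bmpr1b to -2.77 and Gdf15 to 3.22, none of them called. Bmpr1b was also not called with the replicate block (-2.78) or with parotid markers as a covariate (-2.56).

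From 3 to 16 weeks the difference moved by -4.78 for Bmp6 (edgeR adjusted p = 3.6e-05), -3.24 for Gdf5 (edgeR adjusted p = 3.1e-05), -3.00 for Nrg1 (edgeR adjusted p = 9.2e-04), -2.29 for Bmpr1b (edgeR adjusted p = 0.023), -2.16 for Tgfb2 (edgeR adjusted p = 2.6e-04), -1.17 for Egf (edgeR adjusted p = 1.9e-04), 1.75 for Gdf15 (edgeR adjusted p = 0.043), 1.56 for Tgfb1 (edgeR adjusted p = 0.017) and 1.41 for Tgfa (edgeR adjusted p = 0.049). Egf was not called without NOR 16 weeks replicate 2 (-0.96), Tgfb1 not without NOR 3 weeks replicate 1 (1.31), and Bmpr1b not without NOR 3 weeks replicate 2 (-2.08) or NOR 16 weeks replicate 1 (-1.97). Without the 4 libraries rich in parotid markers Bmpr1b came to -1.79 (edgeR adjusted p = 0.24), Tgfb1 to 2.03 (edgeR adjusted p = 0.054), Gdf15 to 1.77 (edgeR adjusted p = 0.15) and Tgfa to 1.33 (edgeR adjusted p = 0.19), none of them called. Gdf15 and Tgfa each lost the call without any 1 of 12 libraries, at 1.28 to 1.96 and 1.22 to 1.62. Tgfa was also not called with DESeq2 (1.45), with no filter on low counts (1.44), with the replicate block (1.41) or with parotid markers as a covariate (1.38), and Gdf15 not with that covariate (1.57) or with only the groups compared (1.79). From 8 to 16 weeks the difference moved for Tgfb3 alone, by -1.04 (edgeR adjusted p = 0.015), and this was not called without BALB/c 16 weeks replicate 3 (-0.93), NOR 8 weeks replicate 1 (-0.82) or NOR 16 weeks replicate 1 (-0.83). Nor was it called with DESeq2 (-0.991), DESeq2 size factors in edgeR (-0.989), TMM without the 20 most abundant genes (-0.983), no filter on low counts (-0.992) or parotid markers as a covariate (-0.995), all just short of the fold cutoff, or without the 4 libraries rich in parotid markers (-1.02, edgeR adjusted p = 0.065). For every one of the 17 calls other than those of Bmp6 and of Gdf5, Nrg1 and Tgfb2 from 3 to 16 weeks, glmTreat ended the call.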

How the results depend on the processing

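Of 51 called gene and comparison pairs among the growth factor genes, 45 had a value under all 29 alternatives. Of these, 25 kept their call and direction under all 29 and 34 did so under all but glmTreat, which tests for a log2 fold change beyond 1. The other 6 pairs lacked a value under 1 or 2 alternatives, a mean CPM of at least 1 or only the groups compared, and no pair reversed in any alternative run. Counts of called growth factor genes are given as 3, 8 and 16 weeks between strains, then BALB/c 8 against 3 and 16 against 8 weeks, then the same in NOR, then the change of the strain difference. With no fold cutoff they were 10, 14 and 18, then 16 and 3, then 11 and 9, and 3 for the change from 8 to 16 weeks. With glmTreat they were 2 at 3 weeks, 4 and 0 in BALB/c, 0 in NOR from 8 to 16 weeks, and 1, 4 and 0 for the changes from 3 to 8, 3 to 16 and 8 to 16 weeks. With no filter on low counts NOR 16 against 8 weeks gave 6. The change from 8 to 16 weeks gave 0 with DESeq2 size factors in edgeR, 0 with TMM computed without the 20 most abundant genes and 0 without the 4 libraries rich in parotid markers, and that from 3 to 8 weeks gave 3 without those libraries. Leaving out these 4 libraries, and the test of the change from 3 to 8 weeks, were chosen after seeing the data. The other pathway genes called at 3 weeks were 2 with no filter, 9 with no fold cutoff, and 0 with glmTreat, with parotid markers as a covariate, without the 4 libraries and with only the groups compared; at 8 weeks 20 with no fold cutoff, 2 with glmTreat and 3 without the 4 libraries; at 16 weeks 47 with no fold cutoff and 7 with glmTreat. The cause was not tested.

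Leaving out each of the 18 libraries in turn gave 3 to 5, 8 to 9 and 7 to 11 growth factor genes between strains, 7 to 8 and 1 to 1 in BALB/c, 3 to 5 and 2 to 5 in NOR, and 5 to 7, 6 to 10 and 0 to 3 for the changes from 3 to 8, 3 to 16 and 8 to 16 weeks. The count of 5 in NOR from 3 to 8 weeks came without NOR 3 weeks replicate 1. In NOR from 8 to 16 weeks 4 came without BALB/c 16 weeks replicate 3 or NOR 8 weeks replicate 1 or 2, and 5 without NOR 8 weeks replicate 3 or NOR 16 weeks replicate 1. For the change from 8 to 16 weeks, 2 came without BALB/c 8 weeks replicate 2, 0 without BALB/c 16 weeks replicate 3 or NOR 8 weeks replicate 1, and 3 without NOR 16 weeks replicate 1. Other pathway genes ranged from 0 to 1, 3 to 5 and 9 to 15, with 0 without BALB/c 3 weeks replicate 1 or 2 or NOR 3 weeks replicate 2 or 3, and 3 without BALB/c 8 weeks replicate 3 or NOR 8 weeks replicate 2.

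With the replicate number as a block the counts were 4, 8 and 9 between strains, 7 and 1 in BALB/c, 3 and 3 in NOR, and 6, 8 and 1 for the changes, with 1, 5 and 14 other pathway genes. Same-numbered libraries correlated at -0.362 to 0.395 in their deviations from the group means. The highest values, 0.309 and 0.395, were those of replicates 1 and 2 between the strains at 3 weeks. Whether same-numbered libraries shared a batch was not tested.

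Depth limits the low genes: Nog and Bmp6 at 3 weeks and Bmpr1b in NOR rest on at most 8 reads per library, and 30 of the 75 genes had too few reads to test. Pooling differed between the 3-week and adult libraries and cannot be told apart from age.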

Other observations

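Among the 30 growth factor genes that had reads but did not pass the filter, testing without any filter called Gdf11, Gdf3 and Fgf13 higher in NOR than in BALB/c at 16 weeks and Fgf9 higher in NOR at 8 weeks. Gdf11, a relative of myostatin, had 3, 34 and 15 reads in the NOR libraries of 16 weeks, or 0.207, 1.33 and 1.59 CPM. The B cell marker sums of these replicates were 136, 449 and 281 CPM, so the highest values fell in different libraries. Fgf13, an intracellular FGF homologous factor that binds sodium channels, had 4, 20 and 4 reads there. Gdf3, a NODAL-related ligand, had 5, 5 and 3 reads. Fgf9 had 5, 3 and 2 reads in NOR at 8 weeks and 0, 0 and 0 in BALB/c. Fgf16 was called lower at 8 than at 3 weeks in BALB/c, from 10, 5 and 11 reads to 1, 1 and 1. These calls appear only when the filter is left out and rest on the few reads given. With the filter, 8.93% and 14.1% of all genes were called higher in NOR at 8 and 16 weeks. The shares without the filter are not given here.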
